A study of Mus musculus with 9 samples.

Results

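The livers described here are the 3 control livers of a study of muscle and liver in nonalcoholic steatohepatitis (NASH), and they were chosen by their label alone, as 3 of 9 liver libraries. The labels give these mice a wild-type (WT) genotype and a diet high in fat and carbohydrate, and these livers are described as the study's Flox controls, which carry Irf4 alleles flanked by loxP sites and no muscle Cre. According to the methods the NASH model was made with this diet and a sugar drink. The methods describe mice of both sexes, and the labels of these livers give no sex. The methods also place a control virus coding for GFP in the gastrocnemius muscle of control mice, whereas the labels name no virus for these livers. Sections of the methods state the length of the diet differently, and the labels give neither age nor the mouse each piece of liver came from. Livers of mice on normal chow were not analysed here, so no value below separates the diet from liver as such. In bulk RNA of whole liver, fewer cells of a type and less RNA per cell cannot be told apart.

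The liver makes most proteins of the blood plasma, clears foreign compounds with cytochromes P450, handles sugar, nitrogen, fat and bile acids, and stores lipid in droplets that enlarge in fatty liver. Most of its RNA comes from hepatocytes. Stellate cells, which store vitamin A and make collagen when activated, sinusoidal endothelium, bile duct cells and Kupffer cells, the resident macrophages, make up the remainder. In NASH, lipid-laden hepatocytes are accompanied by inflammation and by scarring from activated stellate cells.

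Reads counted on genes numbered 23157010, 23896946 and 22900737 in Flox livers 1, 2 and 3. Levels are given in CPM, the count of a gene per 1000000 counts of its liver, as mean ± SD of 3 livers unless all 3 values are given, and always in the order liver 1, 2 and 3. At this depth 1 read stood for 0.0429 ± 0.000943 CPM, and the limit that a count of 0 allows, 3 reads, was 0.129 ± 0.00283 CPM. These limits cover counting error only. Of 24008 genes in the table, 2409 had no read in any Flox liver and 12017 were at 1 CPM or more in every one of them.

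The RNA was that of liver. Hnf4a, the nuclear receptor that maintains hepatocyte identity, was at 536, 624 and 568 CPM, Rxra, the partner of many nuclear receptors, was at 464 ± 26.4 CPM and Cebpa at 408 ± 58.7 CPM. All but 1 of the 17 hepatocyte identity factors had a mean count of at least 50. Most genes of tissues that could come along with a liver piece were at or near 0. The 10 skeletal muscle genes in the table summed to 1.17, 1.80 and 1.48 CPM, of which Mylpf, a myosin light chain, was 0.953 ± 0.382, and Acta1, Mb and Tnnc2 were at 0 in every liver. Of 5 pancreatic acinar genes, Ctrb1, Pnlip and Prss2 had at most 1 read in each liver, whereas Cela1 was at 8.51, 7.62 and 8.17 CPM. Among 6 adipocyte genes, Lep and Retn were at 0 and Adipoq had 1 read in each liver, and Cfd, the adipsin gene, had 80, 15 and 8 reads, most in liver 1, while Car3, a carbonic anhydrase that hepatocytes also make, was at 1831, 2036 and 2229 CPM. Haemoglobin genes, which mark blood left in the tissue, were low, with Hbb-bs at 67.4, 71.7 and 122 CPM and Hba-a1 at 68.1, 60.2 and 94.6 CPM. Liver 3 was the highest for both, but the lowest for Hba-a2 (10.8, 9.58 and 1.97 CPM), a near-identical copy of Hba-a1 whose reads cannot be divided with certainty. Alas2, the haem synthesis enzyme of red cells, was at 137, 120.1 and 126 CPM.

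A small number of genes held most of the reads. Counting from the most abundant gene downwards, 154, 166 and 159 genes were enough for 50% of all counted reads (159.7 ± 6.03). The 10 genes with the highest mean CPM over the livers took 20.2% of reads in liver 1 (95% Clopper-Pearson interval 20.18 to 20.22), 19.4% in liver 2 (19.42 to 19.45) and 18.8% in liver 3 (18.83 to 18.87). Ranked within each liver, the 10 most abundant genes were not all the same, and they held 20.2%, 19.5% and 19.05%. The intervals and the mean below are those of the 10 genes ranked by mean CPM. The intervals, which cover counting error only, were far narrower than the spread between livers, and the mean was 19.5% ± 0.676. The 100 most abundant genes held 44.6% ± 0.385 and the 1000 most abundant 72.7% ± 0.425. Only 115 ± 4.58 genes were at 1000 CPM or more.

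**Figure D1:**
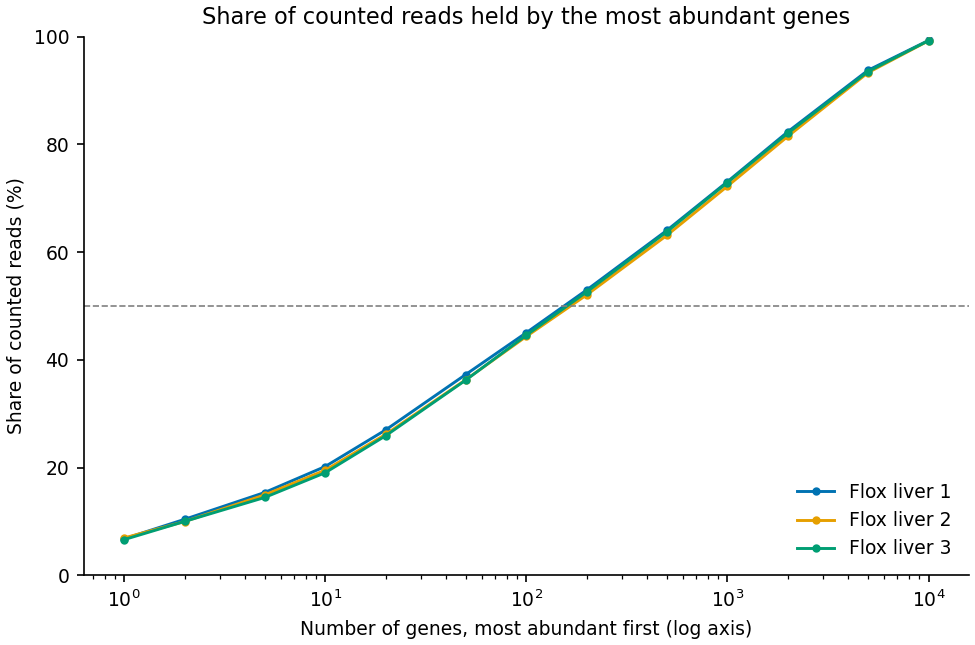
Share of counted reads (%) against the number of genes taken from the most abundant downwards (log axis), with 1 line for each of 3 Flox livers. The lines lie almost on each other and cross the dashed line at 50% between 154 and 166 genes.

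All of the 20 most abundant genes belonged to the secreted or the metabolic lists, 11 and 9 of them. Albumin (Alb, on chromosome 5, 90460870 to 90476602 of GRCm38.p6) led every liver, with 67829, 69322 and 66279 CPM, or 6.78% ± 0.152 of reads. Apoe, the ligand by which lipoprotein remnants are taken up, came next at 36150, 30526 and 33762 CPM (chromosome 7, 19696244 to 19701310). It was followed by COX1, a mitochondrially encoded subunit of cytochrome c oxidase, and by Scd1, the desaturase that makes monounsaturated fatty acids (chromosome 19, 44394450 to 44407709), at 18328, 15594 and 12198 CPM. Of these 4, Alb was the steadiest and Scd1, which was highest in liver 1 and lowest in liver 3, the most spread.

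CPM favours long transcripts, so levels were also divided by transcript length and rescaled to the same total. On this per-length scale Alb (60719.7 ± 2635) and Apoe (43251 ± 2950.2) stayed first and next, and Apoa2, a short apolipoprotein transcript that is 9th by CPM, became 3rd with 30535 ± 3463. Apoc1 (16286 ± 919.9) and Fabp1 (15899 ± 2069), the fatty acid carrier of the hepatocyte cytosol, moved up to ranks 6 and 7 per length from 25 and 23 by CPM. Scd1 went from rank 4 to 21 and Apob, the very long transcript of the structural protein of VLDL, from rank 29 to 223 per length. Length also shifted the shares of whole classes. Secreted genes held 29.1% ± 0.851 of reads and 33.7% ± 0.997 per length, metabolic genes 23.3% ± 0.566 and 25.5% ± 0.774, stromal genes 0.335% ± 0.0182 and 0.179% ± 0.0110, and immune genes 0.721% ± 0.0620 and 0.957% ± 0.0645.

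**Figure D2:**
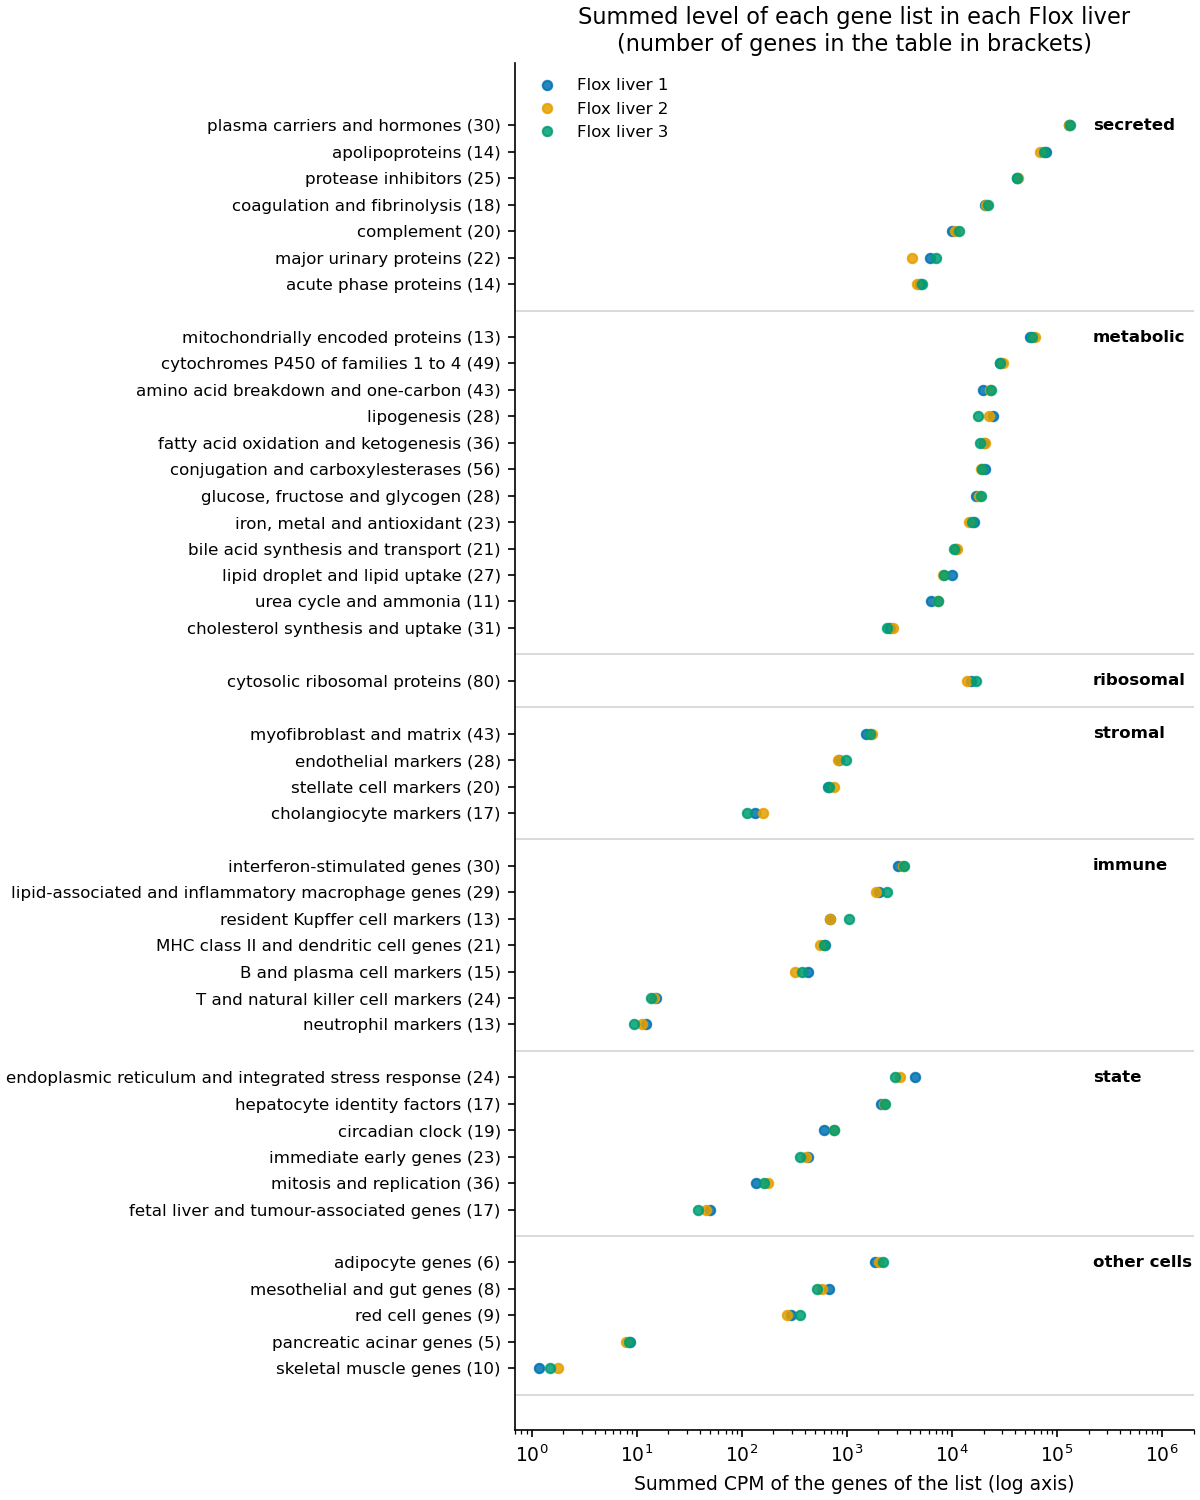
Summed CPM (log axis) of the genes of each list in each of 3 Flox livers, with 1 point per liver, by class, with the number of genes in the table in brackets. Secreted and metabolic lists lie to the right, the T cell and neutrophil lists near 10 CPM and skeletal muscle genes between 1.17 and 1.80 CPM.

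Most genes differed little between the 3 livers. Among 11189 genes with a mean count of at least 50, the highest liver exceeded the lowest by a median ratio of 1.21, and the coefficient of variation (CV) had a median of 9.85%, against 4.76% from counting alone. For 2034 genes the CV was no larger than counting error gives. A ratio of 2 or more was reached by 341 of these genes (3.05%), and 4 or more by 44. The share was 7.87% of genes with a mean count between 50 and 100, 1.61% of those between 300 and 1000 and 2.81% of those above 10000. The livers also differed in how often they were the extreme. Liver 1 was the highest for 27.5% and the lowest for 42.02% of the 11189 genes, liver 2 for 41.8% and 26.4%, and liver 3 for 30.7% and 31.6%. The common biological coefficient of variation, which removes counting error, was 0.141 over 13336 genes. With 3 livers of 1 group there is no comparison to test, and the ratio of highest to lowest is given as a description of the spread. The same 3.05% stands beside every count past a ratio of 2 in a list below. In a short list a few such members, or none, do not set the list apart from it. No pair of libraries was a copy of another, since their counts differed over all genes by a chi-square of 20.5 to 26.3 per gene.

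Carriers and hormones of plasma were the largest secreted list, with 13.1% ± 0.243 of reads over 30 genes. After Alb came Trf, the iron carrier transferrin, at 14299.6, 12333 and 13792 CPM, Sepp1, the selenium carrier selenoprotein P, at 8343, 7305 and 8461 CPM, and Gc, the vitamin D binding protein, at 7627, 7677 and 8393 CPM. Ahsg, the mineral-binding fetuin-A, was at 6270.5, 6839.8 and 8768 CPM and Ttr, the carrier of thyroid hormone and retinol-binding protein, at 6755, 6327 and 6532 CPM. Ttr was nearly level and Ahsg highest in liver 3. Of 28 members with a mean count of at least 50, 2 reached a ratio of 2, a share of 7.14% beside 3.05% of all genes. Hamp, which codes for hepcidin, the hormone that closes the iron exporter ferroportin, was at 590.4, 747 and 1489 CPM, and Igfals, the acid-labile subunit that holds IGF in the blood, at 55.5, 39.96 and 90.8 CPM. Both were highest in liver 3.

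Apolipoproteins held 7.45% ± 0.554 of reads and 12.8% per length. Apoa1, the main protein of HDL, was at 11282, 9563 and 9693 CPM, Apoa2 at 9470.2, 7378 and 9261 CPM and Apoc1 at 4930.2, 4343 and 5018 CPM. None of the 13 members at a mean count of 50 or more reached a ratio of 2, and the widest, Apoc2 and Apoa4, had 1.45 and 1.397. Liver 2 was the lowest for 26.4% of all genes and for 11 of the 13. Their median deviation, the log2 CPM in a liver less the mean log2 CPM of the 3 livers, was 0.06, -0.13 and 0.03. In the same liver transcripts under 1 kb had a median deviation of -0.08 (644 genes) and those over 6 kb 0.13 (1455 genes), and the part of transcript length in the lower apolipoprotein levels was not tested.

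Protease inhibitors summed to 41503, 42897 and 41926 CPM, 4.21% ± 0.0715 of reads. Serpina3k, a kallikrein inhibitor, led with 9332, 8544 and 6802 CPM, before Serpina1b, an alpha-1-antitrypsin, at 5375, 5043 and 4885 CPM, Pzp, an alpha-2-macroglobulin, at 3864 ± 279 CPM and Serpina1c at 3629.6 ± 200.3 CPM. Serpina1e (1295, 2473 and 2653 CPM) and Serpina3m (143, 171 and 289 CPM) were the 2 members of 23 past a ratio of 2 (8.70%, beside 3.05% of all genes), both lowest in liver 1. The Serpina1 and Serpina3 genes are near-identical copies, so the division of reads among them is uncertain.

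Coagulation was the most even secreted list. All 18 members were at 10 CPM or more, the median ratio was 1.12 and 0 of 18 reached 2. The fibrinogen chains Fga, Fgb and Fgg were at 4850.1, 5093 and 5051 CPM, 3709.9, 4110.2 and 4151 CPM and 2726, 2502 and 2516 CPM, and Vtn, the adhesive protein vitronectin, at 2246 ± 139 CPM. F5 (385, 559.9 and 424 CPM) and F7 (61.6, 60.2 and 83.6 CPM) were the widest.

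Complement held 1.08% ± 0.0729 of reads, led by C3, the protein on which all complement pathways converge, at 4458, 4536 and 5717 CPM. Hc, which codes for C5, was at 716 ± 90.7 CPM and C9 at 594 ± 53.3 CPM. Only C2 (1.81, 9.50 and 7.12 CPM) and C1rb (5.35, 7.36 and 3.58 CPM) of 20 members passed a ratio of 2 (10%, beside 3.05% of all genes), and both have close or overlapping neighbours that can share reads. C2 also lies in a stretch of chromosome 17 where reads were missing, described with the MHC genes. Acute phase genes held 0.495% ± 0.0266. Hp, the haemoglobin scavenger haptoglobin, was at 2486, 2144 and 2602 CPM, Orm1 at 752 ± 27.9 CPM, Lrg1 at 472 ± 18.7 CPM and Crp at 409 ± 39.1 CPM. Orm3 (8.12, 5.44 and 3.62 CPM) was the 1 member of 14 past a ratio of 2 (7.14%, beside 3.05% of all genes), and Saa3, a serum amyloid A that macrophages and adipocytes also make, was at 18.4, 14.9 and 28.4 CPM.

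Major urinary proteins, pheromone carriers that male mouse liver secretes under growth hormone and androgen control, were the secreted list with the most spread. They summed to 6167, 4126 and 7126 CPM, lowest in liver 2. Of 20 members at that count 8 (40%, beside 3.05% of all genes) had a ratio of 2 or more. Liver 2 was the lowest for 17 and liver 3 the highest for 12, beside 26.4% and 30.7% of all genes. The median deviations of the list were 0.15, -0.46 and 0.27 on the log2 scale. Mup7 was at 1225, 664 and 1852 CPM, Mup3 at 1100.5, 825 and 1060.1 CPM, Mup20, the pheromone darcin, at 1048, 671 and 1137 CPM and Mup11 at 545, 343 and 685 CPM. The widest were Mup5 (1.86, 1.004 and 15.0 CPM) and Mup13 (161, 56.1 and 61.7 CPM), which were high in different livers. Without liver 3 the count past a ratio of 2 was 2, without liver 2 it was 3 and without liver 1 it was 7. These genes are near-identical copies in a cluster, and a read that fits several of them could have been split or lost, so the summed level is firmer than that of each gene.

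The 13 mitochondrially encoded proteins held 5.82% ± 0.335 of reads, 55349.8, 61901 and 57397 CPM, the largest metabolic list. COX1 was at 17149.5, 21466 and 18490.5 CPM, CYTB of complex III at 9362, 10136 and 9314 CPM, and the complex I subunits ND2, ND1 and ND4 at 8784, 9471 and 8908 CPM, 7699, 7594 and 7735 CPM and 5572, 4995 and 5016 CPM. None of the 12 members at a mean count of 50 or more reached a ratio of 2. ND5 (1715, 3200.1 and 2058 CPM) and ND4L (26.9, 49.5 and 37.0 CPM) were the widest, both highest in liver 2.

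Cytochromes P450 of families 1 to 4, which oxidise drugs, steroids and fatty acids, held 2.93% ± 0.0868. Cyp2e1, which oxidises ethanol and ketones, was at 6974, 7929 and 7307 CPM and Cyp3a11, the main drug-oxidising enzyme of the mouse, at 7469.8, 8148 and 6479 CPM. Cyp4a14, a fatty acid hydroxylase and target of PPAR alpha, was at 1612, 1966 and 1947 CPM and Cyp2f2, a marker of periportal hepatocytes, at 1837, 1687 and 1569 CPM. Of 38 members 2 passed a ratio of 2 (5.26%, beside 3.05% of all genes). These were Cyp2a5 (265, 373 and 719 CPM) and Cyp2a4 (12.4, 5.48 and 2.31 CPM), near-identical copies that ran in opposite directions and whose reads cannot be divided with certainty. Cyp2b13 was at 0 in every liver.

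Conjugation genes and carboxylesterases held 1.95% ± 0.0931, led by Mgst1 (3476, 3352 and 2899 CPM), Gstm1 (2538, 1855 and 1974 CPM), both glutathione transferases, Ces1c (1717, 1723 and 2003 CPM) and Ces3a (1692, 1495 and 1744 CPM). Of 52 members 5 passed a ratio of 2 (9.62%, beside 3.05% of all genes). Ugt1a9, a glucuronosyltransferase, was at 20.9, 23.9 and 107 CPM, high in liver 3 only, and Ugt2b37 at 6.996, 1.63 and 1.88 CPM, high in liver 1. The Ugt1a genes share their last exons.

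Lipogenesis held 2.16% ± 0.346 of reads, and most of that was Scd1. Without it the next members were Elovl2 (663, 586 and 505 CPM) and Elovl5 (702, 551 and 478 CPM), which lengthen fatty acids, and Fads2 (624, 629 and 493 CPM), which desaturates them. Fasn, the fatty acid synthase, was at 418, 403 and 346 CPM, Srebf1, which codes for the factor that switches these enzymes on, at 284, 370.1 and 278 CPM, and Nr1h3, which codes for the oxysterol receptor LXR alpha, at 111, 91.1 and 108 CPM. In 15 of 27 members liver 3 was the lowest, and 14 were highest in liver 1, beside 31.6% and 27.5% of all genes. Lpin1, the phosphatidate phosphatase and coactivator lipin-1, was at 47.8, 346 and 156 CPM (chromosome 12, 16535669 to 16653903) and Thrsp, the lipogenic Spot14 protein, at 83.5, 213 and 194 CPM. Both were lowest in liver 1, against the direction of Scd1, and they were the 2 members past a ratio of 2 (7.41%, beside 3.05% of all genes).

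Lipid droplet and uptake genes summed to 10024, 8258 and 8489 CPM. Fabp1 was at 5591, 4249 and 4665 CPM and Plin2, the coat protein of hepatocyte lipid droplets, at 1006, 736 and 594 CPM, both highest in liver 1. Hsd17b13 and Hsd17b11, enzymes of the droplet surface, were at 771 ± 58.9 and 374 ± 24.1 CPM. Of 25 members at that count 3 passed a ratio of 2 (12%, beside 3.05% of all genes). Plin4 was at 28.8, 98.1 and 49.6 CPM, Cidec, which fuses droplets, at 95.05, 70.8 and 28.5 CPM and G0s2, an inhibitor of the lipase ATGL, at 136, 49.0 and 68.6 CPM. Plin4 was highest in liver 2 and the other two in liver 1. Plin1, the perilipin of adipocytes, was at 0 in every liver.

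Fatty acid oxidation and ketogenesis held 1.98% ± 0.118 of reads. Acaa1b, a thiolase of peroxisomes, was at 2099, 1902 and 1439 CPM, lowest in liver 3, and Slc27a2, a fatty acid transporter, at 1502, 1853 and 1623 CPM. Ppara, the receptor that drives these genes, was at 259, 284 and 230.5 CPM and Cpt1a, the gate of mitochondrial entry, at 511, 595 and 531 CPM. Acot3, a peroxisomal thioesterase, was the 1 of 36 members past a ratio of 2 (2.78%, beside 3.05% of all genes), with 6.18, 2.80 and 40.9 CPM, and Acadvl came close with 122, 61.5 and 75.2 CPM.

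Cholesterol and bile acid genes held 0.258% ± 0.0176 and 1.08% ± 0.0449 of reads. Cholesterol synthesis and uptake summed to 2569, 2763 and 2412 CPM, with Sc5d at 292 ± 43.3 CPM, the HDL receptor Scarb1 at 233 ± 27.2 CPM and the sterol exporter Abcg5 at 128, 225 and 203 CPM. None of 30 members passed a ratio of 2. In the bile acid list Scp2, a sterol carrier, led with 4714, 4329 and 3892 CPM, before the uptake carrier Slco1b2 at 897 ± 112 CPM, Slc27a5 at 742 ± 50.7 CPM and Hsd3b7 at 549 ± 51.5 CPM. Cyp7a1, the rate-limiting enzyme of bile acid synthesis, spread far wider than the list, with 58.0, 145 and 288 CPM, a ratio of 4.97 beside a median of 1.27. Slco1a4 was at 10.6, 29.5 and 16.2 CPM. Cyp7a1 and Slco1a4 were the 2 of 21 members past a ratio of 2 (9.52%, beside 3.05% of all genes), both lowest in liver 1.

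Carbohydrate genes held 1.80% ± 0.101 of reads and 0 of 28 passed a ratio of 2. Pck1, the rate-limiting enzyme of glucose production, was at 1925, 3337 and 2823 CPM, lowest in liver 1, Sord, the sorbitol dehydrogenase, at 1467 ± 44.0 CPM and Fbp1 at 1073 ± 91.3 CPM. The widest were Ppp1r3c, a glycogen-targeting subunit (41.3, 39.2 and 21.7 CPM), and Pklr, the liver pyruvate kinase (205, 255 and 366 CPM).

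Summed levels of nitrogen genes were lowest in liver 1. Urea cycle and ammonia genes summed to 6325, 7355 and 7323 CPM, and liver 1 was the lowest for 7 of 11 and the highest for the other 4, beside 42.02% and 27.5% of all genes. Ass1 was at 1617, 2116 and 1812 CPM, Arg1, which releases urea, at 759, 1179.9 and 1206 CPM, Glud1 at 999.97 ± 70.4 CPM, Glul, the glutamine synthetase of perivenous hepatocytes, at 805, 921 and 1066 CPM and Asl at 305, 379.8 and 492 CPM. None passed a ratio of 2. Amino acid breakdown and one-carbon genes summed to 19680.5, 23028 and 23289.6 CPM, with liver 1 lowest for 26 of 42 and highest for 2, beside the same shares of all genes. Mat1a, which makes the methyl donor S-adenosylmethionine, was at 1616, 2246 and 2660 CPM, Hpd of tyrosine breakdown at 1826, 1942 and 2144 CPM, Cdo1 of cysteine breakdown at 1659, 1969 and 2119.9 CPM and Bhmt at 1345, 1317 and 1655 CPM. The 2 members past a ratio of 2 (4.76%, beside 3.05% of all genes) were Sds, serine dehydratase (184, 442 and 486 CPM), and Tat, tyrosine aminotransferase, a classical glucocorticoid target (710.5, 1767 and 854 CPM).

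Iron, metal and antioxidant genes held 1.54% ± 0.0827 of reads with a median ratio of 1.19, but 2 members stood far from it. Ferritin light chain (Ftl1) was at 4579.6, 3865 and 4505 CPM, Cat, the peroxisomal catalase, at 2691, 2747 and 2397 CPM, Gpx1, a glutathione peroxidase, at 2167, 1900.1 and 1873 CPM and ferritin heavy chain (Fth1) at 1592, 1309 and 1426 CPM. None of these came near a ratio of 2. The metallothioneins Mt1 and Mt2, small cysteine-rich proteins that bind zinc and copper and are induced by metals, glucocorticoids and inflammation, were the 2 of 23 members that did (8.70%, beside 3.05% of all genes). Mt2 was at 13.9, 46.3 and 222 CPM and Mt1 at 23.8, 75.9 and 335 CPM. Both were lowest in liver 1 and highest in liver 3, by 16.04 and 14.1 times, and they ranked 1 and 4 by this ratio among genes with a mean of 10 CPM or more. They are neighbours on chromosome 8 of GRCm38.p6 (Mt2 at 94172618 to 94173567, Mt1 at 94178883 to 94180327). Hamp, in the same order over the livers, was described above.

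Metal response elements are the sites by which zinc induces metallothioneins, and the bases before Mt2 are shown with the matches to a loose form of their core. In this form, TGCNCNC, N stands for any base, so a match need not be such an element. The sequence holds 5 matches to it on either strand, in capitals (RefSeq, GRCm38.p6).
Mt2, chr8:94172368-94172617, plus strand: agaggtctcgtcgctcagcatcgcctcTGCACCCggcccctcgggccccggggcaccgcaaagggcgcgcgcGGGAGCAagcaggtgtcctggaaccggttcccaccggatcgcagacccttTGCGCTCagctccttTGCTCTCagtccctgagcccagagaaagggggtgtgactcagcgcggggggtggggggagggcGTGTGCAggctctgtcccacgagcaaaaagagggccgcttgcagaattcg
This short pattern also occurred before 53.1% of 16646 genes with such a window of 250 bases, and before 55.6% of the 18 members of the list that had one, so it was about as common in the list as in all genes.

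Stromal genes held 0.335% ± 0.0182 of reads, 3139.7, 3469.6 and 3436 CPM over 108 genes. The leading member was Fn1, fibronectin, which hepatocytes secrete into plasma in quantity, at 710.2, 796 and 849 CPM and 23.5% of the class. Bgn, the proteoglycan biglycan, was at 145, 169 and 163 CPM, Col5a3 at 86.3, 104 and 85.3 CPM and Sparc, a collagen-binding protein, at 77.7, 70.7 and 69.7 CPM. The fibrillar collagens of scar were lower, with Col3a1 at 42.7, 52.0 and 40.5 CPM, Col1a2 at 29.9, 33.7 and 24.98 CPM and Col1a1 at 15.2, 18.9 and 10.4 CPM. Liver 2 was the highest for 24 of 37 matrix genes at a mean count of 50 or more, beside 41.8% of all genes, with median deviations of -0.07, 0.18 and -0.08. The widest were Ctgf, a matrix protein induced by TGF beta and YAP (6.26, 15.3 and 8.95 CPM), Mfap4 (3.24, 2.97 and 1.397 CPM) and Mmp12, a macrophage elastase (13.3, 13.3 and 29.0 CPM), which made 3 of 37 past a ratio of 2 (8.11%, beside 3.05% of all genes).

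Stellate cell markers summed to 662, 759 and 673 CPM. Dcn, decorin, was at 237, 283 and 241 CPM, Ecm1 at 132, 134 and 133 CPM, Reln, reelin, at 41.3, 54.7 and 43.4 CPM and Colec11 at 35.7 ± 3.16 CPM. Ecm1 was almost level. Liver 2 was the highest for 14 of 19 members, beside the same 41.8%, and Hgf, the growth factor for hepatocytes (3.11, 6.24 and 3.32 CPM), was the 1 past a ratio of 2 (5.26%, beside 3.05% of all genes). Endothelial markers summed to 835, 825 and 992 CPM, highest in liver 3 for 19 of 27, beside 30.7% of all genes, with none past 2. Eng, the TGF beta co-receptor endoglin, was at 95.7, 90.4 and 103 CPM, the water channel Aqp1 at 78.1, 73.8 and 103 CPM, Plvap at 68.8 ± 3.69 CPM and the sinusoidal lectin Clec4g at 60.2, 52.1 and 68.8 CPM. Dnase1l3 had 58.6, 40.5 and 65.7 CPM. Bile duct markers were scarce at 134, 161 and 112 CPM, with Spp1, osteopontin, which macrophages also make, at 57.5, 79.9 and 41.5 CPM and Sox9 at 5.61, 4.60 and 3.14 CPM.

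Immune genes held 0.721% ± 0.0620 of reads, and 33.9% of that was B2m, the light chain of MHC class I that nearly all cells make, at 2238, 2524 and 2558 CPM. The lysosomal proteases Ctsb (899, 842 and 1007 CPM) and Ctsd (521, 472 and 599 CPM), listed with macrophage genes, are likewise made by hepatocytes, as are Xbp1 (291, 188 and 211 CPM) and Sdc1 (117, 114 and 136 CPM) of the plasma cell list. Genes made mainly by leukocytes were below B2m, Ctsb and Ctsd, but not all were below Xbp1 and Sdc1. Lyz2, lysozyme of myeloid cells, was at 167, 136 and 224 CPM, Mpeg1 at 109.6, 129 and 155 CPM and Cd74, the invariant chain of MHC class II, at 255, 204 and 254 CPM. Class II genes themselves cannot be read as levels, since near them on chromosome 17 of GRCm38.p6 genes that every cell uses had few or no reads in any liver. Of these, Daxx, Csnk2b and Prrc2a were listed at 0, Brd2 had 0, 2 and 0 reads, and Rps28, a ribosomal protein gene, had 3, 3 and 2 reads. H2-Ab1 was listed at 30.2, 11.2 and 18.4 CPM, H2-Aa at 11.2, 19.7 and 13.7 CPM and H2-DMb2 at 0. The same holds for C2, Psmb8 and Psmb9, and for Apom, a protein of HDL that had 1, 3 and 1 reads. From 33 to 36 Mb of this chromosome 50.8% of 122 genes were under 1 CPM, beside 45.6% of all genes with a position, and 13 had no read. Without these genes 328 passed a ratio of 2 in place of 341. The limits of the affected stretch are not known. Rps10 and Rpl10a, described with the ribosomal genes, start at bases 27630415 and 28328471, outside the part left out.

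Among immune lists, liver 3 stood apart in the markers of resident Kupffer cells. Cd5l, a secreted macrophage protein, was at 144, 136 and 239.9 CPM, Clec4f, a lectin that marks resident Kupffer cells, at 120.3, 119.5 and 168 CPM, and the complement C1q chains C1qb, C1qa and C1qc at 115, 106 and 159.6 CPM, 108, 106 and 146 CPM and 83.4, 88.0 and 124 CPM. Liver 3 was the highest for 30.7% of all genes and for all 12 members at a mean count of 50 or more. Their sums were 687, 689.8 and 1048 CPM and the median deviations -0.22, -0.18 and 0.41, with the same signs under TMM and DESeq2 scaling. Of the 12, 3 (25%, beside 3.05% of all genes) passed a ratio of 2, namely Cd163, the scavenger receptor for haemoglobin (8.20, 22.0 and 27.9 CPM), Marco, a scavenger receptor for bacteria (12.1, 15.99 and 37.7 CPM), and Timd4 (4.75, 4.60 and 10.96 CPM). Without liver 3 it was 1 of 12, Cd163. Hbb-bs, Hba-a1 and most ribosomal protein genes were also highest in liver 3, and their part in this was not tested.

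Of 23 lipid-associated and inflammatory macrophage genes liver 3 was the highest for 16 and liver 2 the lowest for 15, beside 30.7% and 26.4% of all genes. Only Il1b passed a ratio of 2 (4.35%, beside 3.05% of all genes). Gpnmb, a marker of lipid-associated macrophages, was at 17.3, 12.6 and 25.2 CPM and Il1b, the cytokine interleukin-1 beta, at 6.87, 2.22 and 3.58 CPM, highest in liver 1. Neutrophil and lymphocyte genes were low. The 13 neutrophil genes summed to 12.3, 11.2 and 9.52 CPM, of which Csf3r was 5.48 ± 0.580 and S100a9, S100a8 and Mmp9 1.45 ± 0.316, 1.29 ± 0.548 and 0.8002 ± 0.104. The 24 T and natural killer cell genes in the table summed to 15.4, 14.6 and 13.5 CPM, with Il2rb at 2.83 ± 0.847, Nkg7 at 1.32 ± 0.474, Gzma at 1.11 ± 0.916 and Cd3g at 1.07 ± 0.270 CPM. Jchain of plasma cells was at 3.45, 1.84 and 5.90 CPM, and immunoglobulin and T cell receptor constant genes were not analysed here.

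The most abundant members of the interferon-stimulated list other than B2m were Iigp1, a GTPase against intracellular parasites, at 379, 407 and 431 CPM, Irf7 at 55.3, 75.6 and 101 CPM and Stat2 at 68.3, 71.6 and 64.7 CPM. Liver 1 was the lowest for 16 of 27 members, beside 42.02% of all genes. The immunoproteasome subunits Psmb9 (5.53, 9.12 and 1.18 CPM) and Psmb8 (5.83, 3.98 and 2.14 CPM), which lie in the stretch of chromosome 17 with missing reads, were the 2 past a ratio of 2, and without that stretch it was 0 of 25. Bst2, counted with the dendritic cell genes, was level, at 279.7, 289.7 and 281 CPM.

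The 20 genes with the widest spread at a mean of 10 CPM or more ran from 16.04 times (Mt2) to 3.54 times (Osgin1). Beside those already given they held Rgs16, a G protein regulator of liver that follows feeding, at 54.0, 248 and 312 CPM, and Alas1, the rate-limiting enzyme of haem synthesis, at 122, 492 and 566 CPM. Per1 and Usp2, a deubiquitinase with a daily rhythm, were at 8.85, 39.5 and 37.8 CPM and 8.77, 29.6 and 37.6 CPM. Pfkfb3, which sets the level of a glycolytic activator, was at 7.60, 30.6 and 24.6 CPM and Mettl20, a mitochondrial methyltransferase, at 6.43, 23.4 and 19.4 CPM. These 6 were all lowest in liver 1.

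Others of the 20 stood out in a single liver. Zbtb16, a transcription factor induced by glucocorticoids, was at 8.38, 51.2 and 7.47 CPM and Gm3934 at 39.3, 182 and 47.8 CPM, both high in liver 2. Socs2, a feedback inhibitor of growth hormone signalling, was at 14.6, 8.16 and 42.2 CPM, high in liver 3. Osgin1, an oxidative stress gene, was at 384, 108 and 125 CPM, Phlda1 at 126, 55.8 and 30.8 CPM and Serinc2 at 18.0, 3.77 and 9.65 CPM, all high in liver 1. The predicted genes Gm12191 (3.89, 44.5 and 61.7 CPM) and LOC108168162 (9.11, 80.6 and 54.6 CPM) were low in liver 1.

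**Figure D3:**
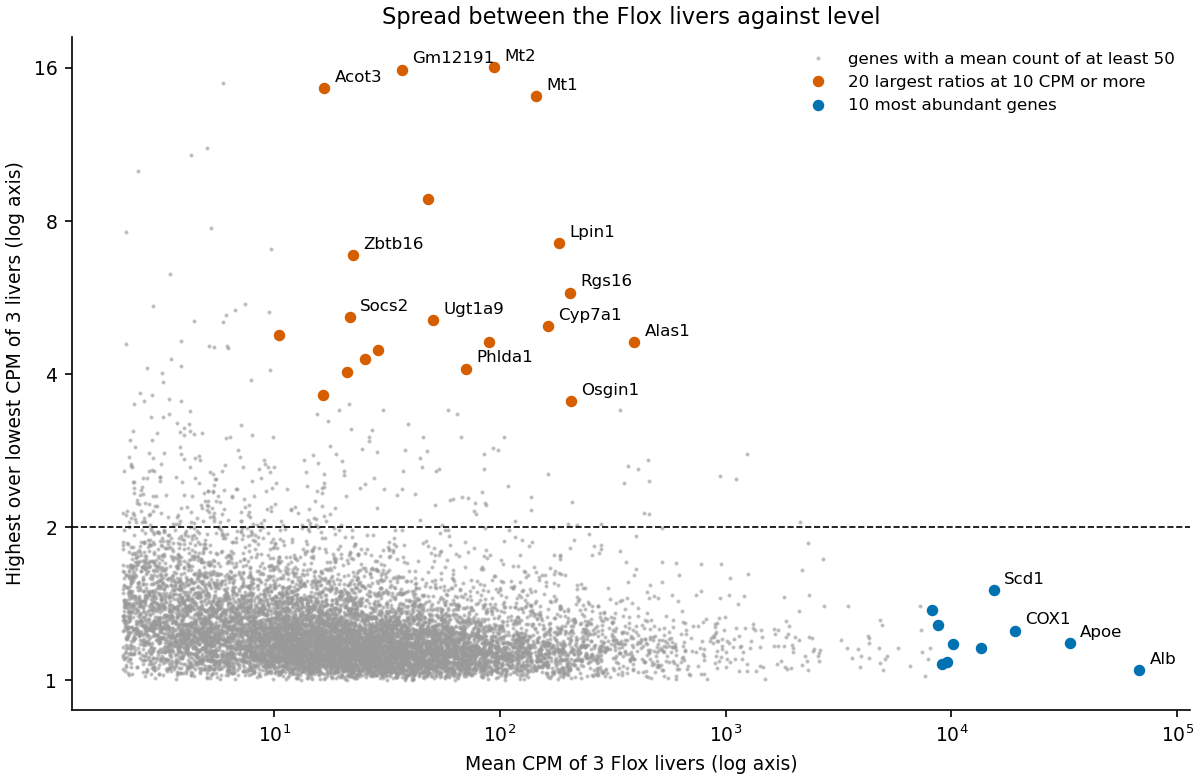
Ratio of the highest to the lowest CPM of 3 Flox livers (log axis) against mean CPM (log axis), with 1 grey point for each gene with a mean count of at least 50, the 20 widest genes at 10 CPM or more in orange and the 10 most abundant genes in blue. The abundant genes all lie below the dashed line at a ratio of 2, and Mt2, Gm12191, Acot3 and Mt1 lie highest among genes at 10 CPM or more.

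At the other end, the 10 narrowest genes with a mean of at least 100 CPM had ratios from 1.004 to 1.01. Zdhhc9, a palmitoyltransferase, was at 106, 105 and 106 CPM. Atp5b, the catalytic subunit of ATP synthase, was at 1501 ± 4.39 CPM and Igfbp2, a secreted IGF binding protein, at 830.4 ± 3.47 CPM. The others were Ndufb11 and Uqcrfs1 of the respiratory chain, Aadac, a deacetylase, Tspan12, Swi5, Tmem176a and Got2, the mitochondrial aspartate transaminase (557 ± 3.36 CPM). With 3 livers and this many genes some ratios near 1 come from counting alone.

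Wide genes did not fall evenly on the livers. Of the 341 genes at a ratio of 2 or more, liver 1 was the lowest for 179, liver 2 for 64 and liver 3 for 98, and the highest was liver 1 for 86, liver 2 for 153 and liver 3 for 102. Without liver 1 the count was 123, without liver 2 188 and without liver 3 199. A ratio over fewer livers cannot be larger. By class, 23 of 97 genes of cell state, which are those of the clock, stress, early response, cell cycle, fetal and hepatocyte factor lists, passed (23.7%). So did 15 of 136 secreted (11.03%), 8 of 80 immune (10%), 19 of 345 metabolic (5.51%), 4 of 90 stromal (4.44%) and 0 of 74 ribosomal protein genes, beside 3.05% of all genes. The secreted 15 include 8 major urinary proteins, which are near-identical copies, and C2 of the chromosome 17 stretch with missing reads. The immune 8 include H2-Ab1, Psmb8 and Psmb9 of that stretch. Without it, 0 of 7 MHC class II and dendritic cell genes and 0 of 25 interferon-stimulated genes passed.

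**Figure D4:**
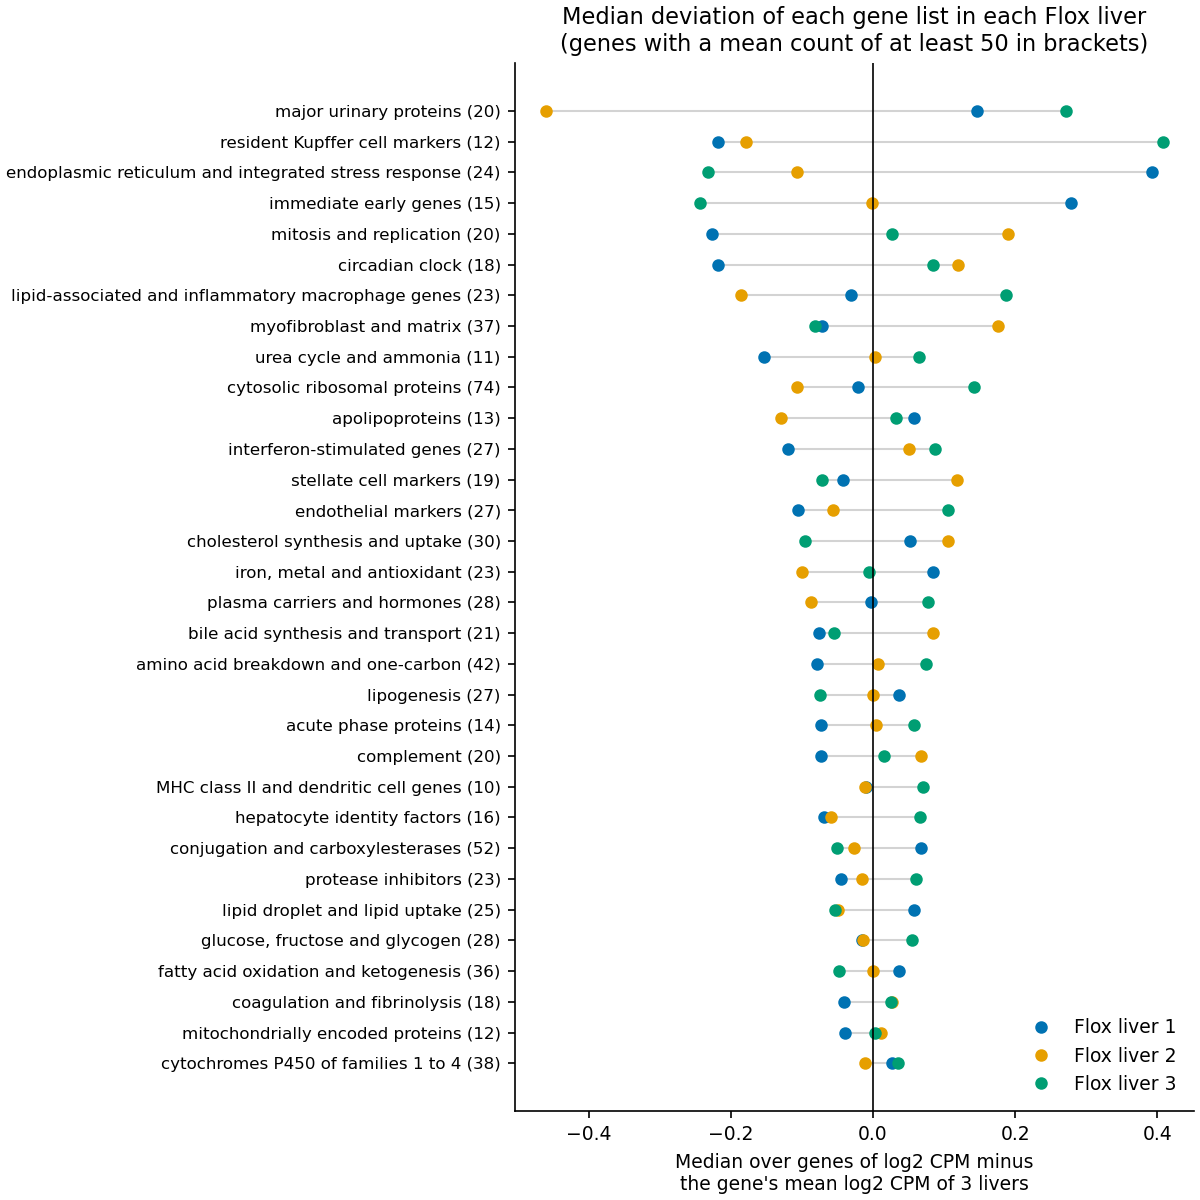
Median over the genes of each list of log2 CPM less the gene's mean log2 CPM of 3 Flox livers, with 1 point per liver and the number of genes with a mean count of at least 50 in brackets, for lists with 10 or more such genes. Major urinary proteins, Kupffer cell markers and stress response genes span the widest range, and coagulation, mitochondrial and P450 genes lie close to 0 in every liver.

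Liver 1 stood apart in the response of the endoplasmic reticulum (ER) to stress. When unfolded proteins build up, ER sensors raise chaperones that fold secreted proteins, and a separate arm through Atf4 limits protein synthesis. Hspa5, the ER chaperone BiP that binds the sensors, was at 717, 365 and 291 CPM, Hsp90b1 at 815, 519 and 480.5 CPM and Calr, the calcium-binding chaperone calreticulin, at 829, 519 and 514 CPM. Liver 1 was the highest for all 3, by more than any difference between livers 2 and 3. Hyou1, a chaperone of the ER lumen, was at 178, 74.7 and 59.2 CPM, Manf, a secreted stress protein, at 116, 47.7 and 38.4 CPM and Creld2, another secreted ER protein, at 55.6, 19.1 and 16.3 CPM. Of 24 members 17 were highest in liver 1 and 16 lowest in liver 3, beside 27.5% and 31.6% of all genes. Median deviations were 0.39, -0.11 and -0.23, and the signs were the same under TMM and DESeq2 scaling.

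Genes of the Atf4 arm were less alike. Atf4 itself was at 98.2, 89.8 and 96.2 CPM, Trib3 at 16.5, 18.7 and 16.6 CPM, Asns at 3.24, 3.31 and 3.41 CPM and Ppp1r15a at 18.0, 18.0 and 16.6 CPM, all close to level. Ddit3, the death-associated factor CHOP, was highest in liver 1 at 11.4, 7.32 and 7.51 CPM, and Chac1 was lowest in liver 1 at 5.44, 14.3 and 10.3 CPM. Herpud1 was lowest there too, at 361, 555 and 477 CPM. All of these but Herpud1 were singled out after their values were seen. In all, 7 of 24 members (29.2%, beside 3.05% of all genes) passed a ratio of 2, namely Creld2, Hyou1, Manf, Derl3, Hspa5 and Sdf2l1, highest in liver 1, and Chac1. Without liver 1 none of the 24 passed, and 6 did without liver 2 or without liver 3. Scd1, Plin2, Fabp1 and Cidec were also highest in liver 1, as were the cytosolic chaperones Hsp90ab1 (1489, 1017 and 1095 CPM), Hspa8 (1371, 972 and 1053 CPM) and Hsph1 (61.1, 26.7 and 23.8 CPM), which are in no list. Whether these levels bear on those of the ER chaperones was not tested.

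**Figure D5:**
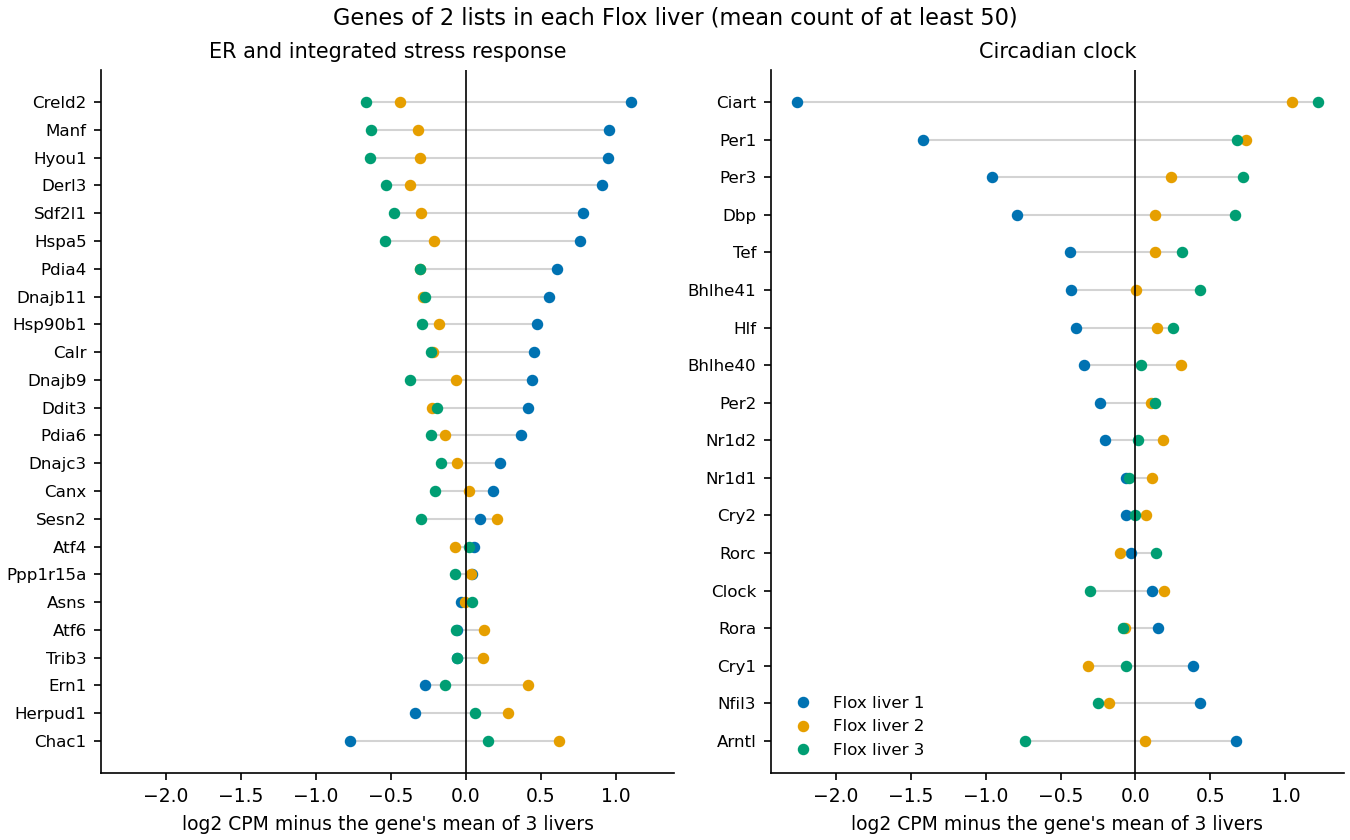
log2 CPM less the gene's mean log2 CPM of 3 Flox livers, for each gene with a mean count of at least 50 of the stress response list (24 genes) and the clock list (18 genes), with 1 point per liver. The chaperones Creld2, Manf and Hyou1 lie far to the right in liver 1, and the clock genes Ciart, Per1 and Per3 far to the left, whereas Arntl, Nfil3 and Cry1 lie to the right in liver 1.

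Some of these genes carry a known sequence upstream. The list was made of known genes of this response, so its share of the sequence is a description and no independent support. The ER stress element is a CCAAT box and the letters CCACG with 9 bases of any kind between them. It was found in the 250 bases before the start in 8 of the 21 members with such a sequence (38.1%), Calr, Canx, Creld2, Derl3, Dnajc3, Hsp90b1, Hspa5 and Pdia6, and before 28 of 16646 genes in all (0.168%), on either strand. All 8 were highest in liver 1, beside 17 of the 24 members of the list and 27.5% of all genes. Hspa5 is shown as the best-known bearer of the element, with its match in capitals (RefSeq, GRCm38.p6).
Hspa5, chr2:34771840-34772089, plus strand: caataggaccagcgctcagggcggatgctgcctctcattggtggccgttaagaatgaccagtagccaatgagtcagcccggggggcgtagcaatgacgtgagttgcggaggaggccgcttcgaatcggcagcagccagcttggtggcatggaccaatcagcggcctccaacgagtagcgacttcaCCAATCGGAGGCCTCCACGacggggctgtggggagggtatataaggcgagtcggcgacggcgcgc
The match is a description of the letters and does not show that a factor was bound there.

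Clock genes differed between liver 1 and the others. The circadian clock is a loop in which Arntl and Clock switch on Per, Cry and Nr1d genes, whose proteins switch them off, so that their levels cycle over the day. The labels give no hour of collection. Per1 was at 8.85, 39.5 and 37.8 CPM, Per3 at 1.94, 4.44 and 6.20 CPM, Ciart, a repressor in the loop, at 0.691, 6.82 and 7.69 CPM and Dbp, an output of the clock, at 23.5, 44.5 and 64.4 CPM. All 4 were lowest in liver 1. Arntl, on the opposite side of the loop, was highest in liver 1 and lowest in liver 3, at 13.4, 8.79 and 5.02 CPM, and so was Nfil3, which opposes Dbp, at 32.99, 21.6 and 20.6 CPM. Dbp, Arntl and Nfil3 were picked after their values were seen.

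Among the most abundant members, Tef was at 86.3, 128 and 145 CPM, Nr1d1, the repressor of Arntl, at 82.7, 93.4 and 84.0 CPM, Bhlhe40 at 61.3, 95.9 and 79.7 CPM and Nr1d2 at 63.4, 82.7 and 73.8 CPM. Of 18 members 12 were lowest in liver 1, beside 42.02% of all genes, and 5 (27.8%, beside 3.05% of all genes) passed a ratio of 2, but none did without liver 1, 5 did without liver 2 and 3 without liver 3. The median deviations were -0.22, 0.12 and 0.08, with the same signs under TMM and DESeq2 scaling. Clock proteins bind the E-box CACGTG, which was found before 5 of 16 members with a window of 250 bases (31.2%), Bhlhe41, Ciart, Cry1, Per1 and Tef, and before 8.22% of 16646 genes. Ciart, the widest member, is shown for its 3 matches, in capitals, over the 221 bases before the annotated gene (RefSeq, GRCm38.p6).
Ciart, chr3:95882258-95882478, minus strand: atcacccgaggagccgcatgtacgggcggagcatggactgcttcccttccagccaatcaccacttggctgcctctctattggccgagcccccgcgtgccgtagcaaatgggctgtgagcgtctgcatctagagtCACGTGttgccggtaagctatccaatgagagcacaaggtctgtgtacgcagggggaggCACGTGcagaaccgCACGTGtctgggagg
Of the 5 genes with the motif, Cry1 was highest and the others were lowest in liver 1.

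Growth and early response genes also spread, at low levels. A ratio of 2 was reached by 7.87% of genes with a mean count between 50 and 100 and by 3.86% of those between 100 and 300. Cell cycle genes summed to 137, 178 and 162 CPM. The replication genes Pcna, Mcm7, Rrm1 and Rrm2 were at 29.1 ± 2.57, 19.9 ± 0.291, 12.2 ± 1.33 and 9.79 ± 2.48 CPM, whereas the mitotic genes Mki67, Cdc20 and Ccnb2 were at 3.45, 7.95 and 5.50 CPM, 1.99, 6.03 and 3.93 CPM and 1.34, 3.56 and 2.05 CPM. Liver 1 was the lowest for 16 of 20 members at a mean count of 50 or more and liver 2 the highest for 11, beside 42.02% and 41.8% of all genes. A ratio of 2 was passed by 5, beside 3.05% of all genes, by 1 without liver 1, by 0 without liver 2 and by 5 without liver 3. Immediate early genes, which cells switch on within minutes of a stimulus, summed to 422, 413 and 359.6 CPM, with Zfp36 at 101, 132 and 131 CPM, Dusp1 at 62.2, 69.9 and 34.6 CPM, Jun at 31.0, 39.6 and 38.7 CPM and Junb at 46.4, 31.1 and 28.9 CPM. Fos was at 5.40, 1.76 and 1.48 CPM and Nr4a1 at 5.05, 2.01 and 2.31 CPM, both highest in liver 1, and Fosl1 was at 0. Of 15 at that count 5 passed a ratio of 2, beside 3.05% of all genes, and the number was 1 without liver 1, 4 without liver 2 and 3 without liver 3.

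Cytosolic ribosomal protein genes differed by small steps, mostly in 1 order. They summed to 15036, 13992 and 16768 CPM. Of 74 with a mean count of 50 or more liver 3 was the highest for 69 and liver 2 the lowest for 61, beside 30.7% and 26.4% of all genes, although none reached a ratio of 2. Rps10 (0, 3 and 1 reads), Rps28, Rps18 (8.20, 6.95 and 8.69 CPM) and Rpl10a (6.35, 7.36 and 9.08 CPM), all on chromosome 17, were far below Rpl10 although every ribosome holds their proteins, so their levels cannot be read as expression. Rpl10 was at 678, 609 and 695 CPM, Rpl4 at 589, 574 and 642 CPM, Rps2 at 424, 386 and 488 CPM and Rps6 at 369.6, 345 and 422 CPM. The widest were Rpl36 (75.8, 47.0 and 88.0 CPM) and Rpl30 (165, 103 and 124 CPM). Their median deviations of -0.02, -0.11 and 0.14 kept their sign in livers 2 and 3 under TMM and DESeq2 scaling and turned to 0.01 in liver 1. Transcripts under 1 kb as a whole had -0.08 in liver 2 and 0.06 in liver 3, and those over 6 kb 0.13 and -0.04, and the part of length in these small shifts was not tested.

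Hepatocyte identity factors had a median ratio of 1.28, beside 1.21 for all genes. Cebpb, induced by glucocorticoids and cytokines, was at 101, 156 and 169 CPM and Nr1i3, the xenobiotic receptor CAR, at 51.4, 90.8 and 114 CPM, the 1 of 16 past a ratio of 2 (6.25%, beside 3.05% of all genes). Fetal and tumour-associated genes summed to 49.7, 45.2 and 38.4 CPM, with Ly6d at 22.6 ± 3.01, Golm1 at 6.69 ± 0.690, Abcc4 at 3.12 ± 0.356 and Gpc3 at 2.93 ± 0.386 CPM, and Cdh17 at 0. The epithelial genes Krt8 and Krt18, which hepatocytes make, were at 341, 307 and 269 CPM and 276, 226 and 206 CPM, Lgals4 at 37.9 ± 2.49 CPM, and the mesothelial gene Upk3b at 5.14, 3.18 and 4.89 CPM.

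The genes at the centre of the study were low in liver RNA. Irf4, deleted in the muscle of the other groups, was at 5.66, 5.52 and 4.41 CPM and Fstl1, the secreted follistatin-like protein that muscle releases, at 5.96, 7.78 and 6.42 CPM, with ratios of 1.28 and 1.31. Of the proposed receptors of FSTL1, Dip2a was at 3.07, 5.98 and 4.93 CPM and Cd14, the co-receptor for endotoxin, at 7.38, 6.07 and 8.03 CPM. Tlr4 was at 3.44 ± 0.524 CPM, and Tlr2, which the study's primer list does not name, at 5.70 ± 0.870 CPM. By CPM the receptors of BMP and TGF beta were higher, Bmpr2 at 36.4 ± 2.17 CPM, Bmpr1a at 31.1 ± 0.727 CPM, Acvr1 at 12.7 ± 1.29 CPM, Tgfbr1 at 26.5 ± 1.26 CPM and Tgfbr2 at 37.9 ± 3.30 CPM, whereas Bmpr1b was at 0 in every liver. Eng, the TGF beta co-receptor given with the endothelial markers, was the highest receptor named here, at 96.3 ± 6.18 CPM. Per length the contrast did not hold for Cd14 (7.93 ± 0.953), which was above Bmpr2 (5.14 ± 0.393) and Acvr1 (7.02 ± 0.644). Tgfbr1 (8.38 ± 0.444), Tgfbr2 (8.54 ± 0.845), Bmpr1a (9.52 ± 0.379) and Eng (51.2 ± 2.34) were above Cd14, and Dip2a (1.30 ± 0.432) stayed below all of them. Acat2 was at 36.5 ± 3.84 CPM, Timp2 at 26.6 ± 2.88 CPM, Tgfb1 at 15.7 ± 2.30 CPM and the macrophage gene Adgre1 at 20.9, 22.2 and 29.5 CPM. Nos2 had 5, 2 and 3 reads, Il6 3, 1 and 2 reads and Il10 5, 7 and 4 reads.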

How the data were processed

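RNA of 9 liver samples was sequenced on a BGIseq500 with paired-end reads of 150 bp. The values deposited by the authors are raw counts per gene, 1 column per library. The submitters' processing notes name Trim Galore 0.6.7, HISAT2 2.2.1, featureCounts 2.0.1 and the mouse build mm10. The annotation, the use of strand and the treatment of reads that fit several genes are not given in the sources used here. Among the deposited genes, 25 symbols had been turned into dates and 2 symbols were repeated, and those genes carry no usable name.

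Only the 3 Flox columns were analysed, with totals of 23157010, 23896946 and 22900737 counts, and the 6 other libraries were not used here. CPM was the count divided by the liver's total, in Python 3.11.15 with pandas 2.3.3 and numpy 2.4.6. Levels per length used the longest transcript of GENCODE M21, which matched 19776 of 24008 symbols and 99.4% of reads. Ratios of the highest to the lowest liver were taken for genes with a mean count of at least 50. The biological coefficient of variation came from edgeR 4.0.16 (R 4.3.3) with TMM factors and its own filter on low counts, and DESeq2 1.42.0 size factors were an alternative scaling. Neither was used to test a difference, and no p-values are given. The calculation was tested on simulated data. Intervals are Clopper-Pearson at 95%. Promoter sequences and gene positions came from RefSeq for GRCm38.p6, and figures were drawn with matplotlib 3.10.9.

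The genes were described in 42 lists of 7 classes, and 31 of 1047 listed members could not be matched and were not analysed here. The members and lists were chosen with earlier results of these data known. Genes were named by rule, namely the 20 most abundant, the 4 highest members of each list and those at 0 in every liver, the 20 largest ratios at a mean of 10 CPM or more with the 2 largest of each list, the 10 smallest ratios at 100 CPM or more, and the genes of the study. Tlr2 and Acvr1 were named with the genes of the study, although its primer list does not hold them. Fzd4, which that list does hold, is not reported here. Other genes, such as Ahsg, G0s2, Manf, Timd4, C1qc, Ppara, Fasn, Mmp12, Mki67 and the fibrillar collagens, were chosen after their values were seen. Alternatives were CPM per length of transcript or of all exons, leaving out mitochondrially encoded genes, other limits on counts, other scaling and leaving out each liver. A few genes that the naming rule covers are not reported here.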

Additional observations from a re-analysis of the deposited data

How the results depend on the processing

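On a per-length scale reads were held by fewer genes. With CPM divided by transcript length, 73.7 genes on average were enough for 50% of the total and the 10 most abundant held 25.3%, and with the length of all exons, an alternative chosen after seeing the data, the values were 73 genes and 25.3%. The class shares per transcript length were 33.7% for secreted, 25.5% for metabolic, 0.179% for stromal and 0.957% for immune genes, and per length of all exons 33.3%, 26.3%, 0.177% and 0.996%. Without mitochondrially encoded genes the secreted share was 30.9%, the metabolic share 18.6% and the stromal share 0.356%. These shifts follow from how each scale is built. The number of genes at a ratio of 2 or more was 1102 with a mean count of at least 10, 152 with at least 200 and 5776 with no limit and 1 count added to each gene. With 1 liver left out it ran from 123 to 199. The median ratio was 1.24, 1.18 and 1.34 under the same 3 limits, and 1.12 to 1.13 with 1 liver left out. The common biological coefficient of variation ran from 0.126 to 0.148 with 1 liver left out. Scaling by TMM or DESeq2 size factors gave 334 and 333 genes at a ratio of 2 or more. Without genes of chromosome 17 from 33 to 36 Mb, chosen after seeing the data, it was 328. Over all alternatives 40 values stayed close to the value given and 28 did not. Close meant within 1 SD over the livers for a share and within 1.5 times for a count. For the median ratio and the biological coefficient of variation it meant within 1 SD of their values with 1 liver left out. Counts under 50 were too few for a ratio, and a count of 0 allows up to 3 reads. No paired analysis was possible because a single group was described and no groups were compared.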

Other observations

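Of the 100 most abundant genes 16 stood in none of the lists. Eef1a1, the elongation factor that brings aminoacyl-tRNA to the ribosome, was at 4870.1, 4585 and 4962 CPM, rank 24. Eef2, which moves the ribosome along, was at 1347, 1335 and 1389.9 CPM. Aldh2 and Adh1, the enzymes of ethanol breakdown, were at 2739, 2579.7 and 2424 CPM and 2533, 2240.4 and 2582 CPM. Uox, the urate oxidase that mice have kept, was at 1650.5, 2032 and 1959 CPM and lowest in liver 1. Phyh, which breaks down branched fatty acids in peroxisomes, was at 1955, 2001 and 1892 CPM, and Pigr, the receptor that carries IgA into bile, at 1222, 1274 and 1251 CPM, both nearly level. Fmo5, a flavin monooxygenase, had the order of Pck1 over the livers, with 950.4, 1538 and 1297 CPM. P4hb, a protein disulfide isomerase of the endoplasmic reticulum outside the stress list, was at 1385, 1188 and 1094 CPM, highest in liver 1 and lowest in liver 3. Tmbim6, a membrane protein of the same compartment, was at 1566, 1359 and 1345 CPM, in the same order. Hsp90ab1, a chaperone of the cytosol, was at 1489, 1017 and 1095 CPM, highest in liver 1 as well. These genes were picked after their values were seen.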
